A study of Mus musculus with 12 samples.

Results

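The 10 genes described here encode transcription factors of the antrum and of the gastric foregut, namely Pdx1, Nkx6-3, Onecut2, Sox2, Sox21, Gata4, Gata6, Foxa1, Foxa2 and Foxa3. The 10 were picked by gene symbol from a table of 55421 mouse genes, with earlier results of these data known. All 10 passed the filter on low counts that left 16152 genes for testing. RNA was measured in bulk by poly(A) RNA sequencing of wild-type (WT) mouse gastric organoids, which are epithelial cultures grown in Matrigel from isolated glands of the corpus (the acid-secreting body of the stomach) or the antrum (the distal part next to the intestine). Each of the 4 groups held 3 organoid lines, numbered 8025, 8026 and 8028 in each region, and values are given below in that order. The vehicle groups, whose treatment is labelled none, received DMSO in the normal medium, which contained 50% L-WRN conditioned medium (a source of Wnt3a, R-spondin and Noggin). The inhibited groups received the tankyrase inhibitor XAV939, labelled 1 mM, with exogenous Wnt and R-spondin removed and Noggin added at 100 ng/mL. Treatment began on day 4 after a passage of established lines and lasted 24 h, so the effects of the drug, the withdrawn factors and the added Noggin cannot be told apart. Corpus lines grew in 20% and antral lines in 10% fetal bovine serum, and an effect of serum cannot be told apart from one of region. Nothing in the labels says whether a number shared by the regions marks the same mouse.

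Regional identity in the stomach is set by combinations of DNA-binding factors. PDX1, a ParaHox homeodomain protein of the posterior foregut, is expressed in the antrum and duodenum and is needed for the antral gastrin cell, and the homeodomain protein NKX6-3 is a marker of the antral and pyloric epithelium. SOX2 marks the anterior foregut and the stomach as opposed to the intestine, GATA4 and GATA6 are zinc finger factors of the columnar endoderm, and FOXA1, FOXA2 and FOXA3 are forkhead pioneer factors that open chromatin in endoderm-derived organs. Canonical Wnt signalling, which acts through beta-catenin and TCF/LEF factors and maintains the stem cells at the gland base, is one of the signals that pattern these organs along their axis.

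Deposited gene counts summed to between 18858022 and 31656696 per library, and expression is given as CPM (counts scaled to a common library total) scaled by TMM (trimmed mean of M values). A floor of 3 counts corresponded to 0.0948 to 0.159 CPM. The Wnt target Lgr5 fell by 5.56 on the log2 scale in corpus and by 4.90 in antrum, and Axin2 fell by 2.88 and by 2.61. Epithelial keratin and adhesion genes summed to 7970 to 9920 CPM in vehicle and 15600 to 17800 CPM after inhibition. Of these 5 genes, 4 rose and 1 fell in corpus, where 15.5% of all tested genes rose and 15.4% fell. In antrum 4 rose and 1 did not pass, where 16.3% of all tested genes rose and 13.4% fell. Stomach gland genes summed to 715 to 1070 CPM in vehicle and 2680 to 4920 CPM after inhibition. The list was mixed gene by gene. Of its 9 tested genes, inhibition raised 5 and lowered 4 in corpus, against 5 and 3 in antrum. The part of these epithelial changes in the members' responses was not tested. Intestinal markers summed to 205 to 382 CPM, mostly Vil1. Blood and endothelial markers summed to 10.3 to 52.0 CPM, mostly Cd68, whose mean was 34.6 CPM in corpus vehicle and 18.9 CPM in antral vehicle. The mesenchymal list summed to at most 2.48 CPM with Barx1 and Nkx3-2 at 0, and all 6 pancreatic markers were at 0. The parietal cell gene Atp4b was near 0, with a mean of 0.00313 CPM, and so was the antral hormone gene Gast, with a mean of 0.0324 CPM. Atp4b was the only gene of the stomach gland list left untested. The other parietal pump gene on that list, Atp4a, passed the filter on low counts. On principal components of all tested genes, both libraries of the line labelled corpus 8028 lay away from the other corpus lines, at -1.8 and 25.3 on a second axis where the other corpus libraries lay from -40.9 to -28.2 and the antral libraries from 7.9 to 34.2. The labels call the line corpus. Whether it holds corpus epithelium alone was not tested, and every corpus mean and every regional value from all libraries includes it. Regional results are given with and without that line. Since it was set aside for lying toward the antral libraries on the axis that separates the regions, p-values without it are too small and describe only how the values move. Rows resembling ribosomal RNA took 17.2% of the counts of the antral vehicle library of line 8025 and 6.87% of that of line 8028, against 0.839% to 3.45% elsewhere.

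Foxa1 was the most abundant member per exon length, with a median over the 12 libraries of 46.3 CPM per kilobase of exon and a range of 35.8 to 55.5. Nkx6-3 followed at 28.6, Gata4 at 26.7, Foxa3 at 21.1, Sox21 at 20.4, Foxa2 at 16.8, Pdx1 at 14.4, Gata6 at 9.90, Sox2 at 8.63 and Onecut2 at 2.38 CPM per kilobase. The ranges over libraries of neighbours in this order overlapped for every pair except Sox2 and Onecut2. The other 7 genes varied little among the libraries, their highest level being 1.42 to 1.82 times their lowest. By comparison, Pdx1 varied 2.43 times, Onecut2 6.87 times and Nkx6-3 482 times.

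**Figure D1:**
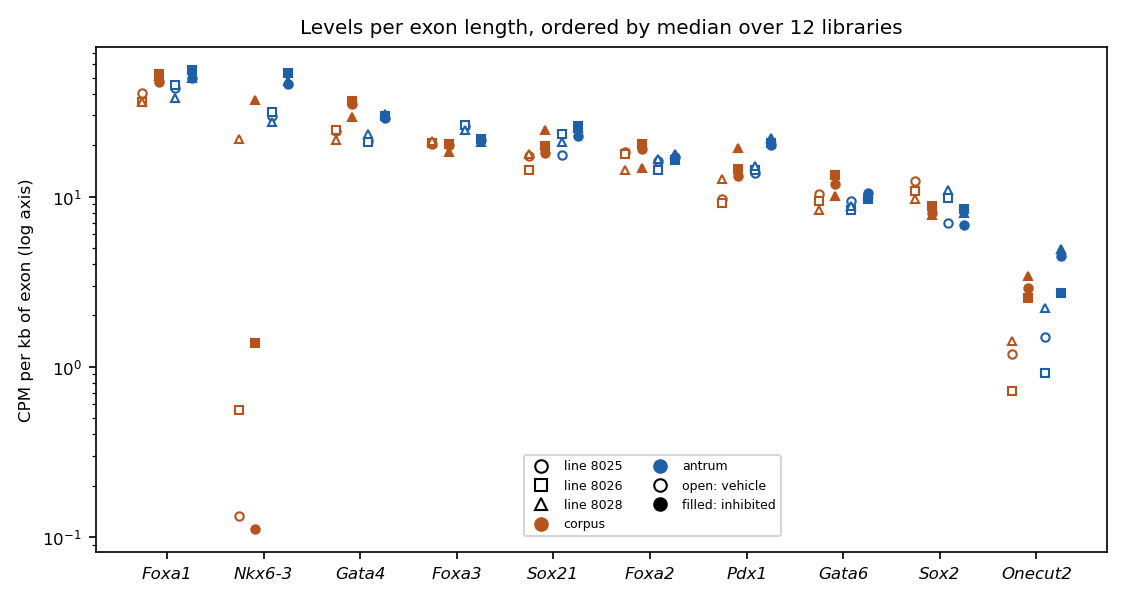
CPM per kilobase of exon (log axis) of the 10 genes in each of 12 libraries, ordered by median; symbols give the line, colour the region, and filled symbols the inhibited libraries. Foxa1 lies highest, and the Nkx6-3 values of corpus lines 8025 and 8026 lie far below all its others.

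**Figure D2:**
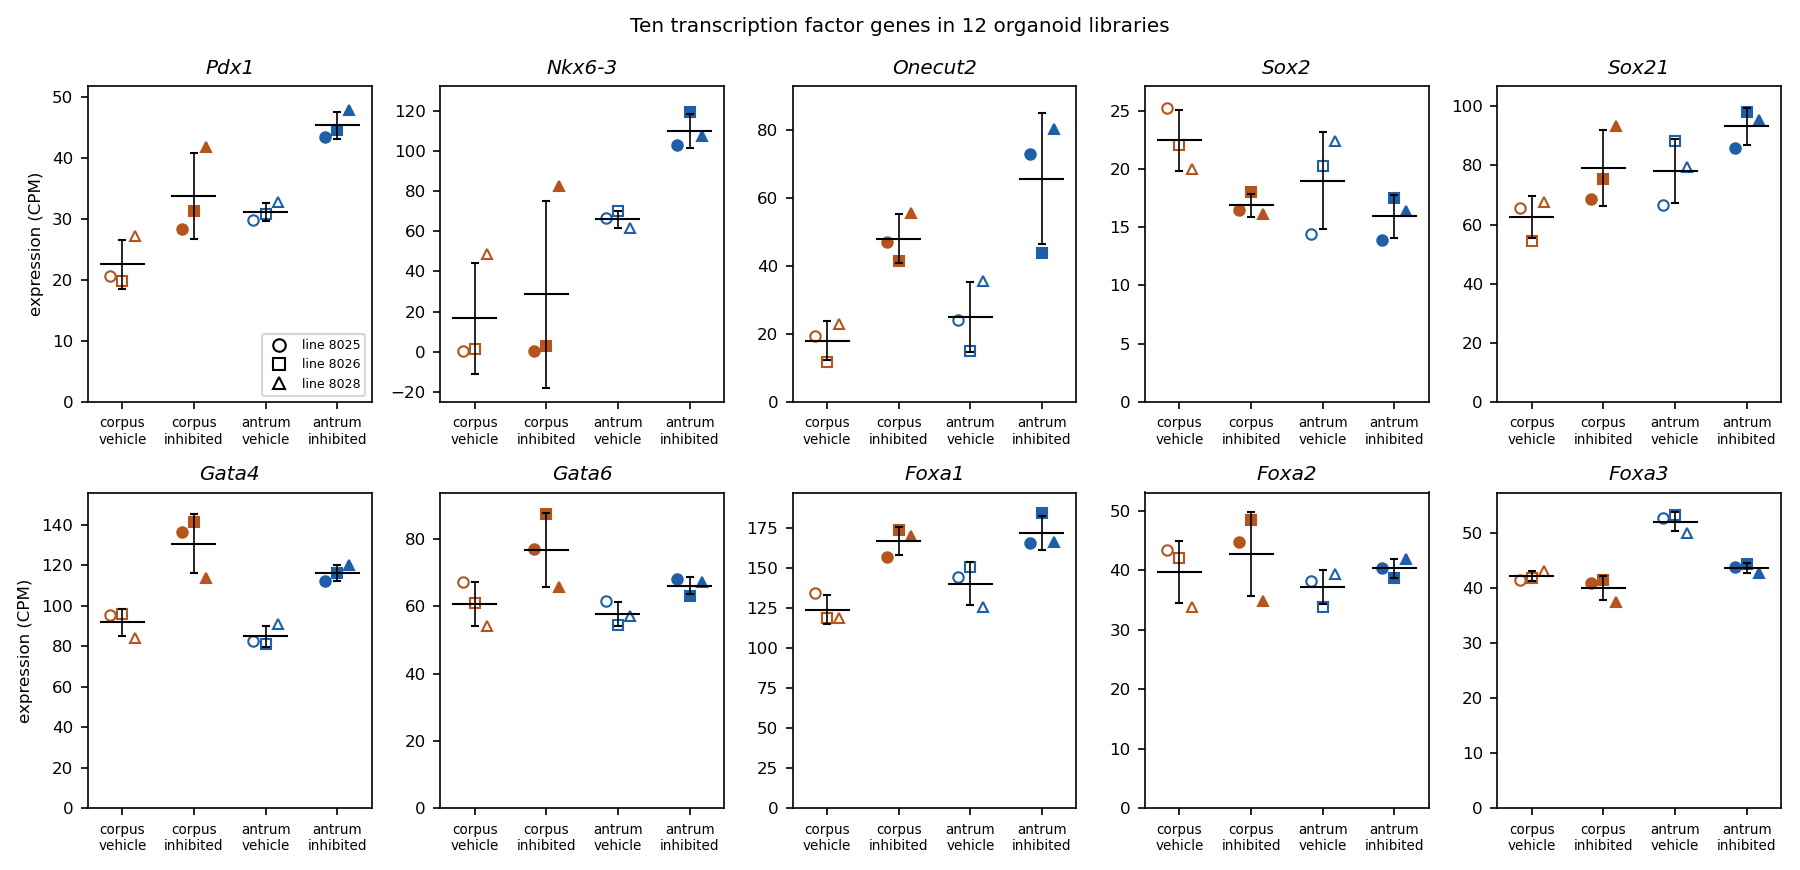
TMM-scaled CPM of each gene in every library by group (linear axes; symbols are lines, horizontal bars the means and vertical bars the SD of 3 lines). Pdx1, Onecut2, Gata4 and Foxa1 are higher in the inhibited than in the vehicle libraries of each region, and the Nkx6-3 mean in corpus rests on line 8028.

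Wnt inhibition was followed in corpus by a rise of Pdx1, Onecut2, Gata4, Gata6 and Foxa1, with no member falling. In antrum Pdx1, Onecut2, Gata4 and Foxa1 rose and Foxa3 fell. Thus 5 of 10 members rose in corpus, where 15.5% of all tested genes rose and 15.4% fell, and 4 of 10 rose and 1 fell in antrum, where 16.3% of all tested genes rose and 13.4% fell (edgeR quasi-likelihood test, Benjamini-Hochberg adjusted p below 0.05). The members' median log2 change was 0.38 in corpus and 0.27 in antrum, against -0.04 and -0.04 over all tested genes. When each line was compared with itself, by adding the line to the model as a block, 7 members rose and 1 fell in each region, where the shares of all tested genes that rose and fell were 19.8% and 23.7% in corpus, against 20.6% and 20.2% in antrum. Scaling by library totals alone, which moved the median of all genes to -0.19 in corpus and -0.12 in antrum, left 2 members rising and 1 falling in each region, against 8.28% of all tested genes rising and 23.1% falling in corpus, and 11% and 13.8% in antrum. In corpus 2 members rose without both libraries of line 8026, where 8.62% of all tested genes rose. When the libraries of 1 region were fitted alone, 3 members rose and 1 fell in corpus (12% of all tested genes rose and 10.4% fell) and 6 rose and 1 fell in antrum (19.9% and 16.9%). In antrum 1, 2 and 2 members rose without both libraries of line 8025, 8026 or 8028, where 10.3%, 10% and 12.3% of all tested genes rose. Leaving out antral vehicle lines 8025 and 8028 gave 2 rising members, where 10.8% of all tested genes rose. In bulk RNA a change in the number of cells of a type and a change in RNA per cell cannot be told apart.

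**Figure D3:**
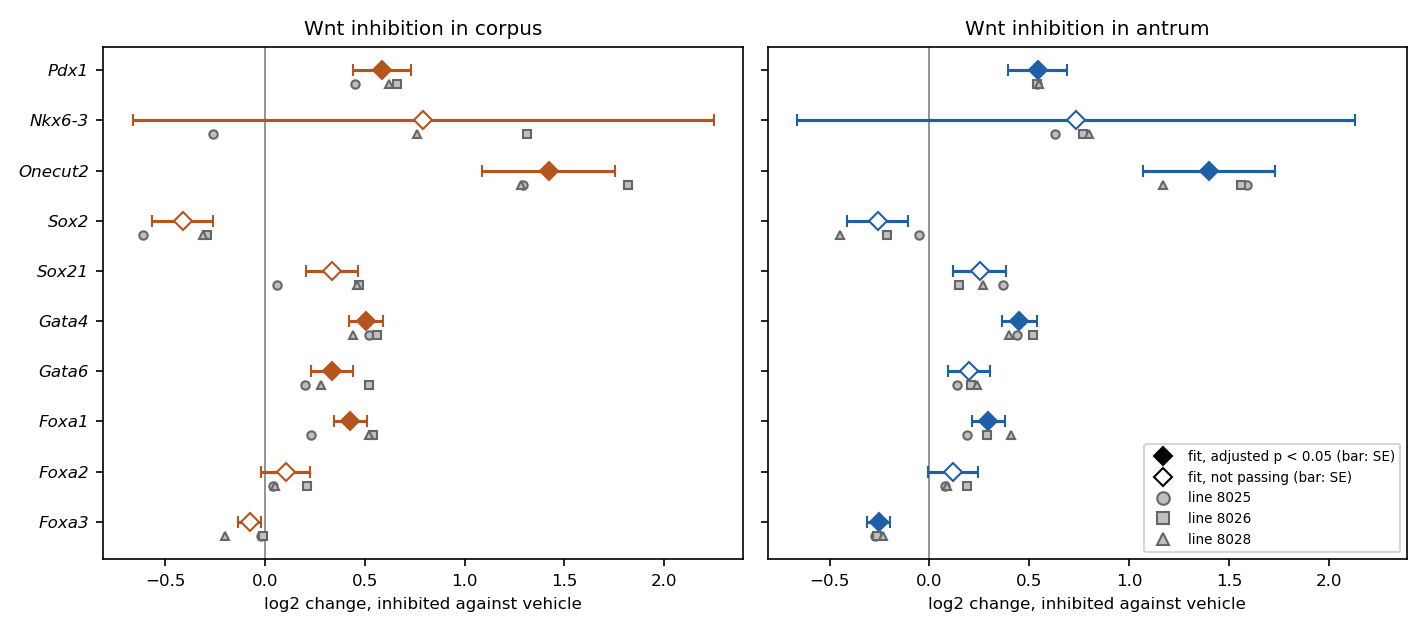
Log2 change from vehicle to inhibited medium in corpus (left) and antrum (right); diamonds are the fitted changes with SE, filled where the adjusted p was below 0.05, and small grey symbols the ratios of the 3 lines. Onecut2 changed by 1.42 and 1.40, and Nkx6-3 has the widest error bars, with an SE of 1.46 and 1.40.

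Pdx1 (chr5:147269959-147275848, plus strand, GRCm38) was higher after inhibition in each region and higher in antrum than in corpus in each medium. In corpus it measured 20.7, 19.8 and 27.2 CPM in vehicle and 28.4, 31.3 and 41.9 CPM after inhibition. In antrum it measured 29.8, 30.8 and 32.8 CPM in vehicle and 43.5, 44.7 and 47.9 CPM after inhibition. In none of these 4 comparisons did the groups overlap, and corpus line 8028 was the highest corpus library in each medium. The log2 change was 0.59 ± 0.15 (SE, adjusted p = 0.0107) in corpus and 0.54 ± 0.15 (adjusted p = 0.0162) in antrum. Within lines the log2 ratios were 0.45, 0.66 and 0.62 in corpus and 0.54, 0.54 and 0.55 in antrum, so all 6 lines moved the same way. The call depended on the lines and scaling used. In corpus the adjusted p was 0.0693 without both libraries of line 8026, 0.0615 with library totals and 0.0649 when only corpus libraries were fitted. In antrum it was 0.0547 without the inhibited library of line 8028, 0.0837 to 0.0956 without both libraries of any 1 line, 0.134 without the vehicle libraries of lines 8025 and 8028, and 0.0527 with library totals.

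Between regions, Pdx1 was 0.47 ± 0.15 log2 higher in antrum in vehicle (adjusted p = 0.193) and 0.42 ± 0.15 after inhibition (adjusted p = 0.437), neither passing the test over all genes. Corpus line 8028 held 87.3% of the antral mean in vehicle and 92.2% after inhibition. Without both of its libraries the difference was 0.62 ± 0.08 (adjusted p = 0.00338) in vehicle and 0.60 ± 0.08 (adjusted p = 0.00275) after inhibition. Leaving out just the inhibited library of line 8028 also let it pass after inhibition, at 0.60 (adjusted p = 0.0209). The difference between regions in the response was -0.04 ± 0.21, with an adjusted p of 1. Plut, a noncoding gene that overlaps Pdx1 on the opposite strand, held 3681 counts against 10558 for Pdx1, or 34.9%, and the strand setting of the counting is not stated. Its log2 change was -0.07 ± 0.12 in corpus (adjusted p = 0.669) and -0.09 ± 0.12 in antrum (adjusted p = 0.61), so Plut passed in neither region.

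Pdx1 rose in each region, and its antral and corpus libraries did not overlap in either medium. That regional difference did not pass with all libraries. The promoter of Pdx1, shown for this pattern, spans chr5:147269847-147270146 on the plus strand. It runs from 250 bases before to 50 bases after the RefSeq transcript start (GRCm38.p6).
Pdx1: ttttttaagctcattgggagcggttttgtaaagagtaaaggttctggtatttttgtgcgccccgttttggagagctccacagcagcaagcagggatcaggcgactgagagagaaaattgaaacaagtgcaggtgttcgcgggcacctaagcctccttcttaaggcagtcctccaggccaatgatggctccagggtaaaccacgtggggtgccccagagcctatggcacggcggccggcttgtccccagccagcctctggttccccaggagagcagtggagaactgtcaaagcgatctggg
It held no match on either strand to TCF/LEF letters (CTTTGAT or CTTTGAA), forkhead letters (TGTTTAC or TGTTTGC), the GATA letters AGATAA, SOX letters (ACAATGG or AACAATG) or the TATA letters TATAAA. Among 32851 promoters of the same length, 8.65% held the TCF/LEF letters, 8.48% the forkhead, 11.2% the GATA, 6.33% the SOX and 13.6% the TATA letters. RefSeq promoters of 6 of the 10 members were searched. Onecut2 and Gata6 were among the members left out, so nothing is said here about the letters in their promoters.

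Nkx6-3 (chr8:23153269-23158948, plus strand) had the widest range of the members, and the range lay almost wholly among corpus lines. In corpus vehicle it measured 0.296, 1.24 and 48.7 CPM, from 10, 39 and 1463 counts. In corpus after inhibition it measured 0.247, 3.08 and 82.5 CPM, from 6, 72 and 2193 counts. Antral libraries measured 66.5, 70.1 and 61.5 CPM in vehicle and 103, 119 and 107 CPM after inhibition. Lines 8025 and 8026 of the corpus were thus close to the floor or a few CPM above it, and corpus line 8028 was 63.3 times their mean in vehicle and 49.6 times after inhibition. Exact 95% binomial intervals, which cover counting error only, ran from 0.142 to 0.545 CPM for corpus vehicle line 8025, from 0.884 to 1.70 for line 8026 and from 46.2 to 51.3 for line 8028, and did not overlap. Line 8028 held 73.8% of the antral mean in vehicle and 75.1% after inhibition, below every antral library in each medium.

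All libraries together gave Nkx6-3 a difference of 1.99 ± 1.47 log2 between antrum and corpus in vehicle (adjusted p = 0.536) and of 1.93 ± 1.45 after inhibition (adjusted p = 0.679). The antral and corpus libraries did not overlap in either medium, but values within corpus spanned more than the gap between the regions. Without both libraries of corpus line 8028 the difference was 6.44 ± 0.60 (adjusted p = 0.0035) in vehicle and 6.06 ± 0.56 (adjusted p = 0.00247) after inhibition. Nkx6-3 was thereby the member with the largest regional difference in that fit.

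On inhibition, Nkx6-3 was higher in each antral line, with log2 ratios of 0.63, 0.77 and 0.80. The antral groups did not overlap. The model with a common spread for all 4 groups gave 0.73 ± 1.40 (adjusted p = 0.725), with line as a block it gave 0.73 ± 0.08 (adjusted p = 9.91e-05), and the antral libraries fitted alone gave 0.75 (adjusted p = 0.000142). In corpus the log2 ratios within lines were -0.26, 1.31 and 0.76, and the change was 0.79 ± 1.46 (adjusted p = 0.72), or 0.83 ± 0.13 with the block (adjusted p = 0.000654). Leaving out single corpus libraries moved the corpus value between -3.31 and 5.26, and without both libraries of line 8028 it was 1.15 ± 0.92 (adjusted p = 0.382). The difference between regions in the response was -0.06 ± 2.00 (adjusted p = 1).

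The 3 tested genes of at least 5 CPM most like Nkx6-3 over the 12 libraries, by Pearson's r of log2 CPM, were Gm15816 (r = 0.987), Acsm3 (r = 0.954) and Meis2 (r = 0.938), among 11031 genes searched. These correlations describe libraries that share their groups and corpus line 8028, and carry no p. Gm15816, annotated as antisense, lies on the minus strand at chr8:23138794-23149585 and ends 3.68 kb before Nkx6-3, so it does not overlap it. It measured 0.178, 0.893 and 9.12 CPM in corpus vehicle and 10.2, 7.84 and 10.0 CPM in antral vehicle. After inhibition it measured 0.0412, 1.11 and 14.2 CPM in corpus and 20.1, 16.0 and 21.9 CPM in antrum. Its corpus line 8028 was again the only corpus line within or near the antral range. Acsm3, an acyl-CoA synthetase gene, measured 92.1, 101 and 176 CPM in corpus vehicle against 180, 188 and 199 CPM in antral vehicle. Meis2, which encodes a TALE homeodomain cofactor, measured 27.8, 33.9 and 46.5 CPM against 47.4, 53.2 and 61.0 CPM in the same medium.

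Within corpus the paralog Nkx6-2 had the same order of lines, at 0.0889, 6.70 and 14.98 CPM in corpus vehicle and 20.4, 26.1 and 26.4 CPM in antral vehicle. Here corpus line 8026 was intermediate, and after inhibition the corpus lines measured 0.0412, 4.67 and 19.1 CPM. Nkx6-2 did not pass the regional test in vehicle (1.75 ± 1.10, adjusted p = 0.462), nor without corpus line 8028 (2.86 ± 1.20, adjusted p = 0.188). Nkx6-1 had 4 counts in all libraries together. The intestinal homeobox genes Cdx2 and Isx, singled out after their values were seen, were also higher in corpus line 8028 than in the other corpus lines. Cdx2 measured 10.9, 8.80 and 23.8 CPM in corpus vehicle and 17.6, 19.7 and 44.9 CPM after inhibition, and Isx 0.124, 0.128 and 4.06 CPM in inhibited corpus. Antral Cdx2 ran from 17.4 to 25.5 CPM in vehicle and from 30.3 to 39.4 CPM after inhibition, where corpus line 8028 lay above it. Antral Isx ran from 1.97 to 9.48 CPM after inhibition. With all libraries the antral difference in vehicle was 0.51 ± 0.40 for Cdx2 (adjusted p = 0.562) and 2.68 ± 1.19 for Isx (adjusted p = 0.31). Without corpus line 8028 it was 1.07 ± 0.18 for Cdx2 (adjusted p = 0.0121) and 3.99 ± 0.84 for Isx (adjusted p = 0.0275).

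**Figure D4:**
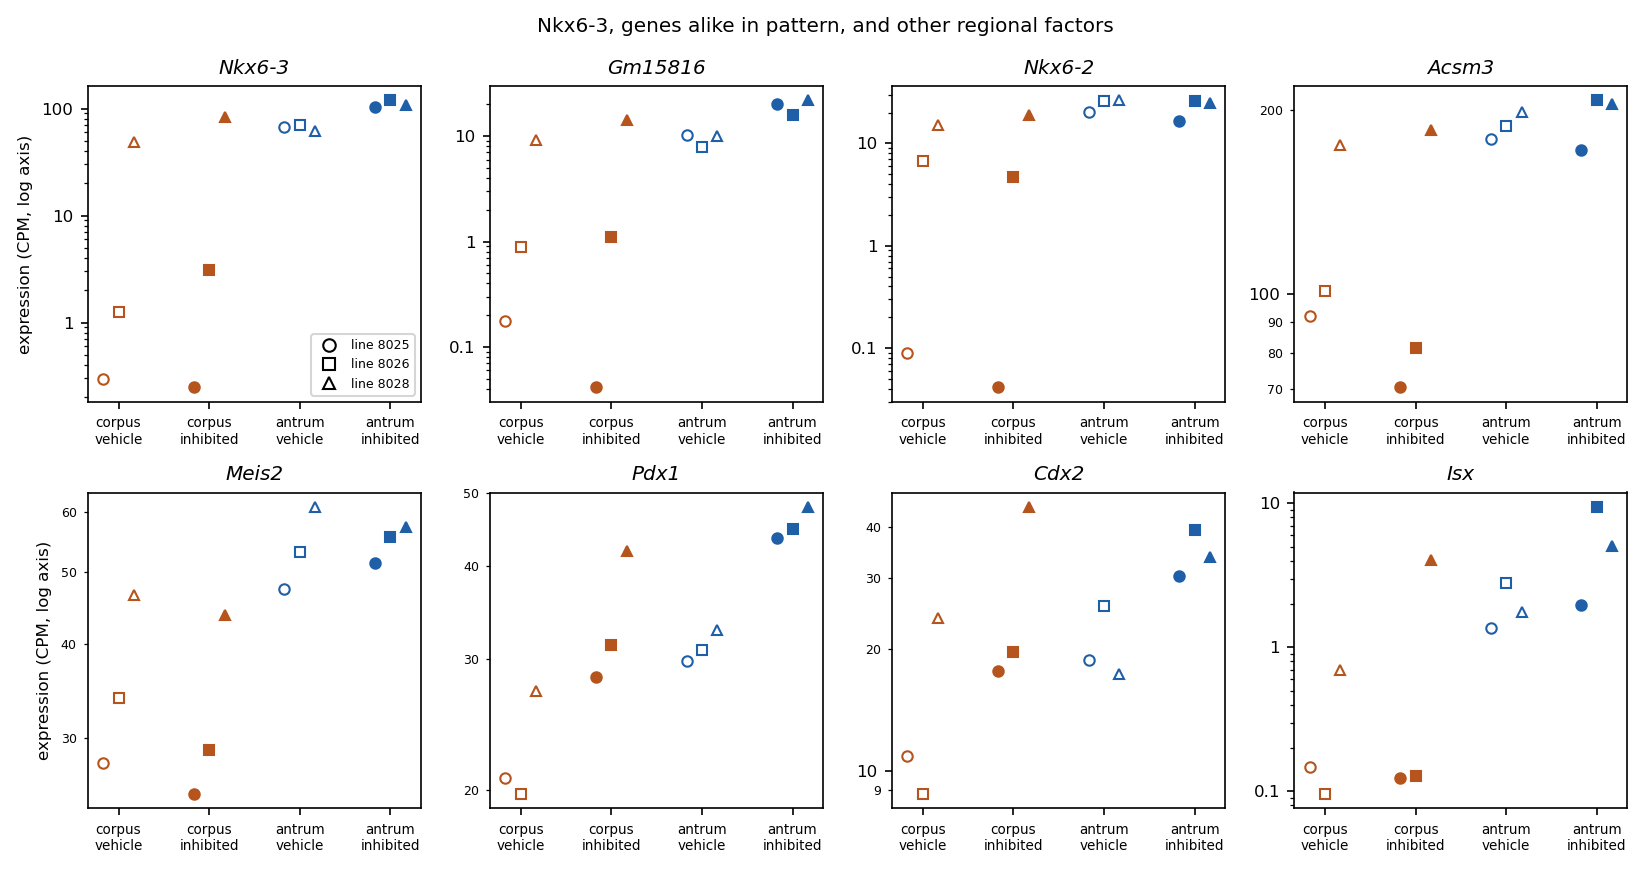
CPM (log axes that differ between panels and do not start at 0) of Nkx6-3, the 3 genes most like it, Nkx6-2, Pdx1, Cdx2 and Isx in each library by group; symbols are lines and filled symbols inhibited libraries. In every panel both triangles of corpus line 8028 lie above the other corpus lines of the same medium. The genes alike, Cdx2 and Isx were picked by their values, so their panels are no separate support for that pattern. Among members not shown, Gata4, Gata6, Sox2 and Foxa2 were lower in line 8028 than in the other corpus lines in each medium.

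Onecut2 (chr18:64340020-64400987, plus strand), a CUT-homeodomain factor of the hepatocyte nuclear factor 6 family, had the largest response to inhibition among the members. In corpus it measured 19.3, 11.7 and 22.9 CPM in vehicle and 47.2, 41.4 and 55.6 CPM after inhibition. In antrum it measured 24.2, 14.96 and 35.8 CPM in vehicle and 73.0, 44.0 and 80.4 CPM after inhibition. Line 8026 was the lowest and line 8028 the highest in every group, and vehicle and inhibited libraries did not overlap in either region. The log2 change was 1.42 ± 0.33 (adjusted p = 0.00723) in corpus and 1.40 ± 0.33 (adjusted p = 0.00802) in antrum, with ratios within lines of 1.29, 1.82 and 1.28, and of 1.59, 1.56 and 1.17. The adjusted p was 0.0503 in corpus without both libraries of line 8026 and 0.0758 in antrum without both of line 8025. The regions overlapped in each medium, with differences of 0.47 ± 0.33 in vehicle (adjusted p = 0.516) and 0.45 ± 0.32 after inhibition (adjusted p = 0.664). Of its family, Onecut3 measured 18.7 ± 0.828 CPM (SD, n = 3) in corpus vehicle and 20.7 ± 2.43 CPM in antral vehicle, with changes of -0.14 ± 0.14 in corpus (adjusted p = 0.478) and 0.06 ± 0.14 in antrum (adjusted p = 0.783). Onecut1 had 17 counts in all.

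Of the GATA factors, Gata4 rose in each region and Gata6 in corpus. Gata4 (chr14:63198922-63271692, minus strand) measured 95.4, 96.1 and 84.3 CPM in corpus vehicle and 137, 141 and 114 CPM after inhibition. In antrum it measured 82.9, 81.3 and 90.9 CPM in vehicle and 112, 116 and 120 CPM after inhibition. The groups did not overlap in either region, and its rise was 0.51 ± 0.09 (adjusted p = 0.00107) in corpus and 0.45 ± 0.09 (adjusted p = 0.00228) in antrum. Gata4 passed under all 18 alternatives run for corpus and all 19 run for antrum.

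Gata6 (chr18:11052064-11085635, plus strand) measured 67.2, 61.0 and 54.0 CPM in corpus vehicle and 77.0, 87.5 and 65.7 CPM after inhibition, and these groups overlapped. Antral libraries measured 61.5, 54.5 and 57.1 CPM in vehicle and 68.0, 63.2 and 67.3 CPM after inhibition, without overlap. All 6 lines were higher after inhibition. The change was 0.34 ± 0.11 (adjusted p = 0.0319) in corpus and 0.20 ± 0.11 (adjusted p = 0.185) in antrum, where it passed with line as a block (0.20 ± 0.07, adjusted p = 0.042) and in the antral libraries fitted alone (adjusted p = 0.0345). The corpus call was lost without the vehicle library of line 8026 (adjusted p = 0.0783) or 8028 (0.0885), without the inhibited library of line 8025 (0.06) or 8026 (0.109), without both of line 8026 (0.234), with library totals (0.216) and with corpus libraries alone (0.11). An overlapping gene on the opposite strand, 1010001N08Rik, held 9.25% as many counts as Gata6.

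Between regions neither GATA factor passed with all libraries, Gata4 at -0.11 ± 0.09 in vehicle (adjusted p = 0.548) and -0.17 ± 0.09 after inhibition (adjusted p = 0.568), and Gata6 at -0.08 ± 0.11 (adjusted p = 0.752) and -0.21 ± 0.11 (adjusted p = 0.567). Corpus line 8028 had the lowest corpus value of each gene in each medium. Without both of its libraries, the antral difference after inhibition was -0.26 ± 0.06 for Gata4 (adjusted p = 0.0225) and for Gata6 -0.32 ± 0.08 (adjusted p = 0.0251). Gata5, the paralog expressed with them in gut epithelium, went the other way on inhibition. It fell from 102 ± 5.98 to 72.9 ± 6.70 CPM in corpus (-0.49 ± 0.07, adjusted p = 0.000352) and from 112 ± 2.90 to 81.3 ± 1.64 CPM in antrum (-0.47 ± 0.07, adjusted p = 0.000478).

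The SOXB genes Sox2 and Sox21 passed the test in neither region in the model without the line. Sox2 (chr3:34650405-34652461, plus strand) measured 25.3, 22.1 and 20.0 CPM in corpus vehicle and 16.5, 18.0 and 16.1 CPM after inhibition, and the groups did not overlap. In antrum it measured 14.4, 20.2 and 22.4 CPM in vehicle and 13.9, 17.5 and 16.4 CPM after inhibition, and the groups overlapped through line 8025. All 6 lines were lower after inhibition, by log2 ratios of -0.61, -0.29 and -0.31 in corpus and -0.05, -0.21 and -0.45 in antrum. The fitted changes were -0.41 ± 0.15 (adjusted p = 0.0619) and -0.26 ± 0.15 (adjusted p = 0.231). In corpus the change passed with line as a block (-0.41 ± 0.10, adjusted p = 0.00849), with upper quartile scaling (0.0484), library totals (0.031), DESeq2 (0.0492) and corpus libraries alone (0.0445). In antrum it passed without the vehicle library of line 8025, the library with the highest share of rows resembling ribosomal RNA, at -0.40 (adjusted p = 0.0395). Sox2ot, on the same strand over Sox2, held 2.57% as many counts, from 2 to 38 per library. It changed by -1.52 ± 0.43 in corpus (adjusted p = 0.0186) and -2.17 ± 0.49 in antrum (adjusted p = 0.00624). The part of Sox2ot in the Sox2 values was not tested.

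Squamous forestomach tissue also expresses Sox2. Its defining factor Trp63 averaged 0.0673 CPM and Sox15 0.0363 CPM, while the list of 8 squamous markers summed to 65.4 to 111 CPM in corpus vehicle, 182 to 371 in inhibited corpus, 70.0 to 101 in antral vehicle and 214 to 319 in inhibited antrum. Most of that sum was Krt4. Of 6 squamous markers tested, Krt4, Krt13 and Ivl rose in each region, Lor fell in antrum (-0.69 ± 0.19, adjusted p = 0.0197) and did not pass in corpus, and Krt5 and Krt14 passed in neither. The part of these markers in the Sox2 values was not tested.

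Sox21 (chr14:118233232-118237030, minus strand), a SOXB factor known for counteracting the activating SOXB factors in neural progenitors, measured 65.7, 54.5 and 67.8 CPM in corpus vehicle and 68.5, 75.5 and 93.3 CPM after inhibition, without overlap. It measured 66.8, 88.3 and 79.4 CPM in antral vehicle and 86.0, 98.1 and 95.4 CPM after inhibition, with overlap. All 6 lines were higher, though corpus line 8025 by a log2 ratio of only 0.06. The changes were 0.34 ± 0.13 (adjusted p = 0.0755) and 0.25 ± 0.13 (adjusted p = 0.173), or 0.33 ± 0.08 (adjusted p = 0.00982) and 0.26 ± 0.08 (adjusted p = 0.0304) with line as a block. In corpus the change also passed without the inhibited library of line 8025 (adjusted p = 0.0333) and by DESeq2 (0.0401). Between regions Sox21 was 0.32 ± 0.13 higher in antral vehicle (adjusted p = 0.282) and Sox2 was -0.24 ± 0.15 (adjusted p = 0.476). After inhibition the differences were 0.24 ± 0.13 (adjusted p = 0.596) and -0.08 ± 0.15 (adjusted p = 0.853). Gm4675, on the opposite strand, held 2.57% as many counts as Sox21. Other SOX genes moved further, Sox9 by -2.11 ± 0.28 in corpus and -1.79 ± 0.28 in antrum, and Sox4 by -0.97 ± 0.10 and -1.16 ± 0.10.

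Of the 3 FOXA paralogs, Foxa1 rose in each region, Foxa3 fell in antrum and Foxa2 passed in neither. Foxa1 (chr12:57540628-57546916, minus strand) measured 134, 119 and 119 CPM in corpus vehicle and 157, 174 and 170 CPM after inhibition. In antrum it measured 145, 151 and 126 CPM in vehicle and 166, 185 and 167 CPM after inhibition. The groups did not overlap, and the rise was 0.43 ± 0.08 (adjusted p = 0.00231) in corpus and 0.29 ± 0.08 (adjusted p = 0.0193) in antrum. The corpus call was lost with library totals (adjusted p = 0.0704). The antral call was lost without the vehicle library of line 8028 (0.0666) or the inhibited library of line 8026 (0.0784), without both libraries of line 8025, 8026 or 8028 (0.0579, 0.0613 and 0.0899), without the vehicle libraries of lines 8025 and 8028 (0.25) and with library totals (0.154).

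Foxa2 (chr2:148042877-148046969, minus strand) measured 43.5, 42.0 and 33.8 CPM in corpus vehicle and 44.8, 48.5 and 34.9 CPM after inhibition. It measured 38.3, 33.9 and 39.4 CPM in antral vehicle and 40.4, 38.7 and 41.9 CPM after inhibition. The groups overlapped in each region, and the changes were 0.10 ± 0.13 (adjusted p = 0.572) and 0.12 ± 0.13 (adjusted p = 0.512), the corpus value turning to -0.05 with library totals. Corpus line 8028 was lower than every antral library in each medium, and the other corpus lines were higher than every antral library. Without that line Foxa2 was -0.20 in antrum in vehicle (adjusted p = 0.135) and -0.21 after inhibition (adjusted p = 0.0875).

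Foxa3 (chr7:19013284-19023538, minus strand) varied least of the members over the 12 libraries, 1.42 times from lowest to highest. It measured 41.4, 41.9 and 43.1 CPM in corpus vehicle and 40.9, 41.5 and 37.5 CPM after inhibition. It measured 52.7, 53.3 and 50.1 CPM in antral vehicle and 43.8, 44.4 and 42.7 CPM after inhibition. In antrum the inhibited libraries lay wholly below the vehicle libraries, and antral libraries lay above corpus libraries in each medium. The antral fall was -0.25 ± 0.06 (adjusted p = 0.00711), with ratios within lines of -0.27, -0.26 and -0.23. The fall no longer passed when line 8025 (adjusted p = 0.097) or 8026 (0.0628) was left out of antrum, nor without the vehicle libraries of lines 8025 and 8028 (0.0517). The corpus change was -0.08 ± 0.06 (adjusted p = 0.35), and the difference between regions in the response was -0.18 ± 0.08, with an unadjusted p of 0.0562 and an adjusted p of 1. In vehicle Foxa3 was 0.30 ± 0.06 higher in antrum (adjusted p = 0.0693 by edgeR and 0.000663 by DESeq2), and without corpus line 8028 the difference was 0.32 ± 0.06 (adjusted p = 0.0159). After inhibition it was 0.13 ± 0.06 (adjusted p = 0.546), and 0.08 without that line (adjusted p = 0.39).

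The promoters of Foxa1, which rose, and Foxa3, which fell in antrum, are shown side by side with that of Sox2, whose lines were all lower after inhibition. Capitals mark a motif match, and windows follow the RefSeq transcript starts (GRCm38.p6, minus strand for Foxa1 at chr12:57546062-57546361 and Foxa3 at chr7:19023490-19023789, plus strand for Sox2 at chr3:34649745-34650044).
Foxa1: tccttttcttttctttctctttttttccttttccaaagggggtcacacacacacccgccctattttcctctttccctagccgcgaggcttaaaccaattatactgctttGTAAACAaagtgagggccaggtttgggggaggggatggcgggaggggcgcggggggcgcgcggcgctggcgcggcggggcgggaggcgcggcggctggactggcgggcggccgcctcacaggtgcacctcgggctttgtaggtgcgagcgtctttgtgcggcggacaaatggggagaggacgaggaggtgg
Foxa3: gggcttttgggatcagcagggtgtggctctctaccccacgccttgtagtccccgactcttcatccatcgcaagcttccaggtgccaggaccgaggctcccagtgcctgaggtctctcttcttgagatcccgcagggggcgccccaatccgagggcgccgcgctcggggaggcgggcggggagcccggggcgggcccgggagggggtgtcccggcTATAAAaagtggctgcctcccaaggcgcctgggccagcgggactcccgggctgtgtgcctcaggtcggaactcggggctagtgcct
Sox2: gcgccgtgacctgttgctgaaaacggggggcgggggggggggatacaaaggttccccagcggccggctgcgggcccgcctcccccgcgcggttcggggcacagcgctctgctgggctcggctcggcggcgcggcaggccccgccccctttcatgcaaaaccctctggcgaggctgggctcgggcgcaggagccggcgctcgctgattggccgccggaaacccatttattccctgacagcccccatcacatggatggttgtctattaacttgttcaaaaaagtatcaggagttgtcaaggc
The Foxa1 window held the forkhead letters, read on the opposite strand as GTAAACA, starting at position -141 from the transcript start, and the Foxa3 window held TATAAA at position -36. The Sox2 and Sox21 windows held none of the letters searched. Of 3 Foxa2 windows, only the third held matches. These were TCF/LEF letters, read on the opposite strand as ATCAAAG, at position 15, and AGATAA at position -183. The third window also held TATAAA, read on the opposite strand as TTTATA, at position -208. A match is a run of letters in these windows and was not tested as a bound site.

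Across the regional comparisons, 0 of 10 members passed in vehicle, where 0.0681% of all tested genes were higher in antrum and 0.13% lower. Likewise 0 of 10 passed after inhibition, where 0.0495% were higher and 0.0124% lower (edgeR, adjusted p below 0.05). At an unadjusted p under 0.05, 2490 genes differed in vehicle and 1493 after inhibition, and DESeq2 called 497 and 149 genes, Foxa3 in vehicle among them. Without both libraries of corpus line 8028, a choice that favours regional differences, Pdx1, Nkx6-3 and Foxa3 were called higher in antrum in vehicle, 3 of 10 members, against 2.27% of all tested genes higher and 4.33% lower. After inhibition Pdx1 and Nkx6-3 were called higher and Gata4 and Gata6 lower, against 9.13% of all tested genes higher and 5.46% lower. Onecut2, Sox2, Sox21, Foxa1 and Foxa2 did not pass in either medium with or without that line. No member passed the test of a difference between regions in the response to inhibition (0 of 10, every adjusted p equal to 1), where 0.00619% of all tested genes had a higher response in antrum and 0% a lower one, 638 genes had an unadjusted p under 0.05, and DESeq2 called 9.

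**Figure D5:**
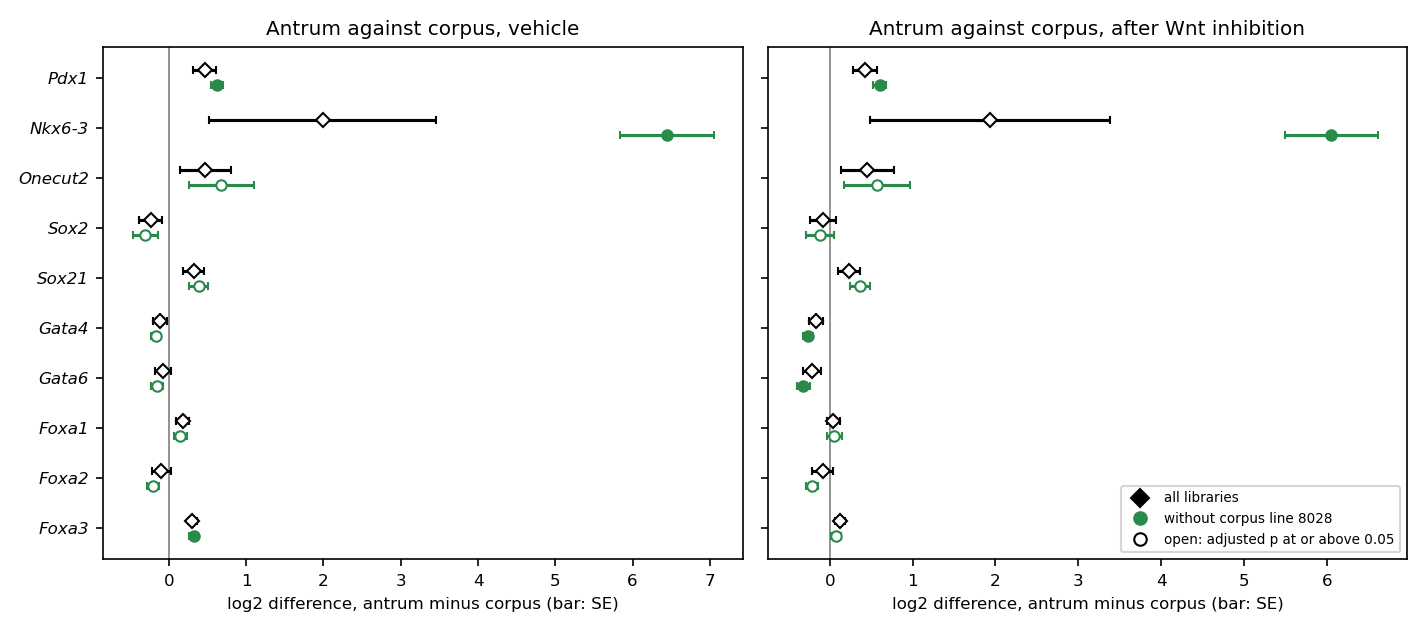
Log2 difference between antrum and corpus (antrum minus corpus, bars SE) in vehicle (left) and after Wnt inhibition (right), with all libraries (black diamonds) and without corpus line 8028 (green circles); filled symbols have an adjusted p below 0.05. Nkx6-3 moves from 1.99 to 6.44 in vehicle, and Pdx1 from 0.47 to 0.62 with a smaller error.

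Other members of the same DNA-binding families served as a comparison. Beside these and the lists that follow, 15.5% of all tested genes rose and 15.4% fell in corpus. The shares in antrum were 16.3% and 13.4%. Of 28 family companions, 16 were tested, and 1 rose and 6 fell in corpus while 1 rose and 5 fell in antrum, with medians of -0.16 and -0.18 against the members' 0.38 and 0.27. Foxq1, a forkhead gene of gastric surface mucous cells, was the riser, at 1.20 ± 0.09 in corpus (adjusted p = 5.55e-06) and 0.91 ± 0.09 in antrum (adjusted p = 3.02e-05). Sox4, Sox9 and Gata5 had the smallest adjusted p among those that fell. Of 22 other transcription factors of gut endoderm, 19 were tested, and 8 rose and 4 fell in corpus while 7 rose and 3 fell in antrum, with medians of 0.29 and 0.20. Klf4, a zinc finger gene of differentiated epithelium, rose by 2.68 ± 0.16 and 2.57 ± 0.16. Hnf4a, a nuclear receptor gene of columnar epithelium, rose by 0.68 ± 0.06 and 0.72 ± 0.06. In corpus 5 rose and 5 fell with library totals, where 8.28% of all tested genes rose and 23.1% fell. Without corpus line 8028, 9 rose and 2 fell, beside 2900 and 3110 of all 16355 tested genes. In antrum 5 fell with library totals, beside 13.8% of all tested genes, and 5 with upper quartile scaling, beside 2825 of 16152. With the line as a block 2 family companions rose in each region. In that fit 19.8% of all tested genes rose in corpus and 20.6% in antrum.

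Of 11 secretory and parietal factors, 7 were tested, and Spdef, Ppargc1a and Creb3l4 fell in each region while Foxq1, which is also on the family list, rose. Of 13 endocrine factors, 4 were tested, and 4 fell in corpus while 2 fell in antrum. Insm1, a zinc finger gene of endocrine precursors, fell in each region, by -1.48 ± 0.31 in corpus (adjusted p = 0.00385) and -1.80 ± 0.28 in antrum (adjusted p = 0.000679), at a mean of 1.99 CPM. In antrum 3 of 4 endocrine factors fell with upper quartile scaling or library totals, and 4 of 4 with the block. Of all tested genes, 13.8% fell there with library totals and 20.2% with the block. Of 15 interacting partners and cofactors, 13 were tested, and 2 rose and 3 fell in corpus while 1 rose and 4 fell in antrum. None rose with library totals, beside 8.28% of all tested genes in corpus and 11% in antrum. Pou2f1, which encodes the POU factor OCT1, changed by -0.56 ± 0.08 in corpus (adjusted p = 0.000466) and -0.61 ± 0.08 in antrum (adjusted p = 0.000281). Meis2 changed by -0.14 ± 0.21 (adjusted p = 0.652) and 0.02 ± 0.21 (adjusted p = 0.947). No gene of these 5 lists passed in either regional comparison with all libraries, where the medians of the tested family companions were 0.11 in vehicle and 0.04 after inhibition.

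By the same measure, the genes most like the other members over the 12 libraries were as follows. For Pdx1 they were Aacs (r = 0.984), Cdc42se2 (0.97) and Pklr (0.968), and for Onecut2 Mblac2 (0.968), Ankrd22 (0.964) and Copz1 (0.955). For Gata4 they were Rab21 (0.985), Ppm1a (0.983) and Eef2k (0.982), for Gata6 Hid1 (0.975), Aak1 (0.97) and 4930404N11Rik (0.967), and for Foxa1 Pgs1 (0.975), Rhof (0.974) and Tepsin (0.964). For Sox21 they were Atxn7l3 (0.965), Nploc4 (0.96) and Setd1b (0.956), and for Foxa2 Nktr (0.97), Map3k2 (0.945) and Zfc3h1 (0.943). The closest genes to Foxa3 (Nedd9, 0.92, Lzts2, 0.908, and Tmem165, 0.891) and to Sox2 (Zfp109, 0.913, Gm7536, 0.876, and Cnpy3, 0.871) were less alike. No member was among the 3 genes most like another member.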

How the data were processed

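The members and the companion lists were chosen with earlier results of these data known. The authors deposited a table of expected counts per gene for 12 libraries, made with cutadapt 2.3, FastQC 0.11.8, STAR 2.7.8a and RSEM 1.3.3 on GRCm38, per the submitters' processing notes; the strand setting is not given in the sources used here. All values were already whole, and 5 transgene rows with 2 counts in all were left out. Members were matched by symbol and placed with GENCODE mouse release 21, which matched 55154 of 55421 gene IDs. Levels between genes use CPM per kilobase of union exon length.

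Counts were tested in R 4.3.3 with edgeR 4.0.16 (TMM, filterByExpr by group, robust quasi-likelihood fit of 4 groups over 12 libraries with 8 residual degrees of freedom, 16152 genes, Benjamini-Hochberg adjustment over all of them). DESeq2 1.42.0 and limma 3.58.1 (voom), other scalings and filters, the fit to only the libraries compared, the replicate block, and omission of libraries or lines were alternatives. Within a region the same lines received both media, so lines pair those libraries, and their deviations correlated at r = 0.157 to 0.544. Across regions, same-numbered libraries in the same medium correlated at r = -0.104 to 0.277 and were not treated as pairs. In a simulation of antral inhibition, 15822 genes were fitted. Changes of 1.5-fold, 2-fold and 4-fold were set in 80, 80 and 40 genes of at least 5 CPM, without line effects. Of these, 45%, 91.2% and 100% were recovered, with 10 false calls among 159 calls. P-values of the main fit rest on the spread between lines within groups, pooled over the 4 groups, and ignore the pairing of lines. In the inhibition comparisons with the block, they rest on the spread of the response among lines, pooled over both regions. Floors and intervals cover counting error only. Named genes were all members, their family paralogs, at most 4 passing genes per companion list with the smallest adjusted p, Lgr5 and Axin2, and the 3 genes most alike to each member. Cell type markers and genes overlapping a member are also named, and Cdx2 and Isx were chosen after their values were seen. Some genes of the companion lists are not reported here by name.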

Additional observations from a re-analysis of the deposited data

How the results depend on the processing

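Depth limits only Nkx6-3 in corpus lines 8025 and 8026, with 6 to 72 counts. Most member changes lie under 1.5-fold. In the simulation 45% of 1.5-fold changes were recovered. Far fewer genes were changed there than passed here, so that share does not carry over to these members. Of the inhibition responses, Gata4 in both regions kept its direction and passed under every alternative run, and Onecut2 under all but 1 in each region. Foxa2 passed under none in either region.

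Genes passing for inhibition in corpus numbered 4985, and 3238 and 2550 without both libraries of line 8025 or 8026. In antrum they numbered 4794, against 2710, 2808 and 3309 when line 8025, 8026 or 8028 was left out of antrum. They numbered 2740 without antral vehicle lines 8025 and 8028. With library totals 26.4% of the corpus calls were higher, against 50.1%, and in antrum 43.6% with upper quartile scaling and 44.4% with library totals, against 55%. In the regional comparison in vehicle, 32 genes passed, 34.4% of them higher, a share of 47.1% with RLE scaling, 50.0% with upper quartile scaling and 11.5% with library totals. That share was 86.7% without the antral vehicle library of line 8026 and 85.7% without both libraries of that antral line. After inhibition 10 passed, 80% of them higher, and 100.0% with upper quartile scaling and 66.7% with library totals.

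Regional counts moved most. In vehicle they were 17 (RLE), 18 (upper quartile), 61 (library totals), 68 (no filter), 497 (DESeq2), 21 (voom), 18 (only libraries compared), 2, 1 and 1080 without both libraries of corpus line 8025, 8026 or 8028, 1 and 5 without both of antral line 8025 or 8028, 2 without antral vehicle lines 8025 and 8028, and 1 to 70 without single libraries. After inhibition they were 3 (upper quartile), 3 (library totals), 16 (no filter), 149 (DESeq2), 0 (only libraries compared), 4, 0 and 2386 without both libraries of corpus line 8025, 8026 or 8028, 0, 0 and 1 without both of antral line 8025, 8026 or 8028, and 0 to 1883 without single libraries. For the difference in response, where 1 gene passed, they were 9 (DESeq2), 0, 0 and 3 without both libraries of corpus line 8025, 8026 or 8028, 0 and 0 without both of antral line 8026 or 8028, and 0 to 5 without single libraries. The replicate block, on a shared number that is not a pairing between regions, gave 69, 37 and 7 genes in these 3 comparisons. In the inhibition comparisons, where the lines pair, it gave 7022 genes in corpus and 6594 in antrum and changed no member's call other than those given above. The cause of these shifts was not tested, and none of the counts says which genes passed.

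All sign changes were in values that did not pass with all libraries. For inhibition in corpus, Nkx6-3 ranged from -3.31 to 5.26 without single libraries, Foxa2 was -0.055 with library totals and Foxa3 0.012 without both libraries of line 8028. For the regions in vehicle, Onecut2 was -0.26 without antral vehicle lines 8025 and 8028, and Gata6 was 0.0033 without both of corpus line 8025 and -0.15 to 0.0027 without single libraries. For the regions after inhibition, Sox2 was 0.010 without both libraries of antral line 8025 (-0.15 to 0.0077 without single libraries), Foxa1 -0.0080 without both of antral line 8026 (-0.0081 to 0.083) and Foxa2 0.016 without both of corpus line 8026 (-0.21 to 0.025).

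For the difference in response, ranges without single libraries spanned 0 for Pdx1 (-0.20 to 0.13), Nkx6-3 (-4.51 to 4.06), Onecut2 (-0.29 to 0.34), Sox2 (-0.013 to 0.29), Sox21 (-0.19 to 0.039), Gata4 (-0.16 to 0.0044) and Foxa2 (-0.12 to 0.11). Library totals gave Pdx1 0.036, Nkx6-3 0.013, Onecut2 0.079 and Gata4 0.030, voom gave Onecut2 0.0066 and upper quartile scaling gave Foxa2 -0.021. Without both libraries of a line, Nkx6-3 was 0.0047 (antral 8025), Onecut2 0.12 (corpus 8026) and 0.17 (antral 8028), and Foxa2 -0.018 (corpus 8025), -0.014 (corpus 8028) and -0.021 (antral 8026). Without antral vehicle lines 8025 and 8028, Onecut2 was 0.72 and Gata4 0.011.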
